A study of Drosophila melanogaster with 3 samples.

Results

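The regions examined lie in and around 10 ecdysone receptor and response genes of *Drosophila melanogaster*, namely *EcR*, *usp*, *Eip74EF*, *Eip75B*, *Eip78C*, *Eip93F*, *br*, *ftz-f1*, *Hr4* and *Hr39*. They were taken by symbol, by a rule with no threshold on a measured value, out of 13945 protein-coding genes on chromosomes with peaks, and each was taken with 10 kb to either side. The data are chromatin immunoprecipitation followed by sequencing (ChIP-seq) for CG12104, a protein of the HMG-box class, in 3 biological replicates of 1 group. The group was whole embryos of both sexes pooled, aged 0 to 24 h, from a fly line that stably makes CG12104 with GFP at its C-terminus. Antibody to GFP recovered chromatin that had been sonicated to 200 to 800 bp, and peaks were called against 1 control alignment. No source used here says what drives the transgene, and no other genotype, treatment or age was compared. The lists hold no expression values, so the tissue label could not be checked against marker genes. In whole embryos, binding in few cells and weak binding in many cells cannot be told apart.

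Ecdysone is the steroid hormone of insect moulting and metamorphosis, and in the embryo a pulse of it accompanies germ band retraction and head involution. It binds a heterodimer of 2 nuclear receptors, EcR and Usp, which switches on early genes such as *br*, *Eip74EF* and *Eip75B*. Their products, together with nuclear receptors such as Hr4, Hr39 and Ftz-f1, shape which later genes respond and when. Many of these genes are long, with several alternative promoters and large introns.

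The authors' set of reproducible regions, called the IDR set after the irreproducible discovery rate, holds 4060 peaks, each with a signal in the units of the authors' caller. Of these, 42 have their summit in a member or within 10 kb of one, and sequence around 5 of them is shown because the results below return to these places. They are the strongest peak in *Eip75B*, the peak at a *usp* start, the strongest peak in *Hr4*, the strongest in the *ftz-f1* intron, and the strongest in *Eip74EF*. Sequence is the plus strand of the dm6 build, from NCBI, 5′ to 3′. Capitals mark matches, on either strand, to the short words searched below. The *Eip75B* stretch begins next to its start and runs upstream of it, and neither it nor the *usp* stretch includes an exon of a protein-coding gene.
Eip75B, chr3L:17999822-18000022: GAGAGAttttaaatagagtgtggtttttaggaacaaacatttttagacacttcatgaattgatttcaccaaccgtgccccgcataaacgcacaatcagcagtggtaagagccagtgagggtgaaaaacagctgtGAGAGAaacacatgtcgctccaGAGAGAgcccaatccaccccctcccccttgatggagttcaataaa
usp, chrX:2041645-2041738: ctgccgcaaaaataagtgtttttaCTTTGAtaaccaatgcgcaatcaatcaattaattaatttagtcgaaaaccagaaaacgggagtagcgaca
Hr4, chrX:1947654-1947854: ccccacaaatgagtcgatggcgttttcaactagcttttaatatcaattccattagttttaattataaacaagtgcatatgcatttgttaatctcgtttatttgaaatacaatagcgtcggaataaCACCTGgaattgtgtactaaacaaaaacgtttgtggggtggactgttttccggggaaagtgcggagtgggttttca
ftz-f1, chr3L:18786850-18787050: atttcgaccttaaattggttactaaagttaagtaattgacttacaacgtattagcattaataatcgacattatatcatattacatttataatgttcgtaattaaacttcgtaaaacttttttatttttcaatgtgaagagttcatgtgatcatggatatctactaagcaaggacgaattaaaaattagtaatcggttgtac
Eip74EF, chr3L:17566975-17567175: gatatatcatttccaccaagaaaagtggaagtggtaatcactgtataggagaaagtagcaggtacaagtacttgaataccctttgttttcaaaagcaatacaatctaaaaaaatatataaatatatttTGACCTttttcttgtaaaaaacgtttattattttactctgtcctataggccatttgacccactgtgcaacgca
The *Eip75B* stretch holds GAGAGA, the word of the GAGA factor, at 3 places, and the *usp* stretch holds CTTTGA, an HMG-box word. In the *Hr4* stretch the capitals are CACCTG, the word of the Snail family of repressors. The *Eip74EF* stretch holds the nuclear receptor half-site AGGTCA on its minus strand, and the *ftz-f1* stretch holds none of the words searched.

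Peaks were unevenly shared among the 10 genes. Of 42 peaks, 10 belonged to *ftz-f1*, 10 to *Hr4* and 9 to *Eip75B*, while *Eip78C* and *Hr39* had none. *EcR* had 4, *Eip74EF* and *Eip93F* had 3 each, *usp* had 2 and *br* had 1. Thus 8 of 10 members had a peak in the gene or within 10 kb, against 59.0% of all protein-coding genes. The members are long: the median member spans 63.0 kb, and the median gene 2.17 kb. Among genes of 20 kb or more, 67.1% had a peak in the same window, against 7 of the 9 members of that length. The presence of a peak was therefore close to what long genes show in general. Peaks inside the gene were found in 6 members, and 25 of the 31 such peaks (80.6%) lay in *Eip75B*, *ftz-f1* and *Hr4*. No share of all genes, or of long genes, with a peak inside the gene is given here, so the 6 cannot be called high or low. With 1 group of 3 replicates there is no contrast to test, and all values here are descriptions.

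**Figure D1:**
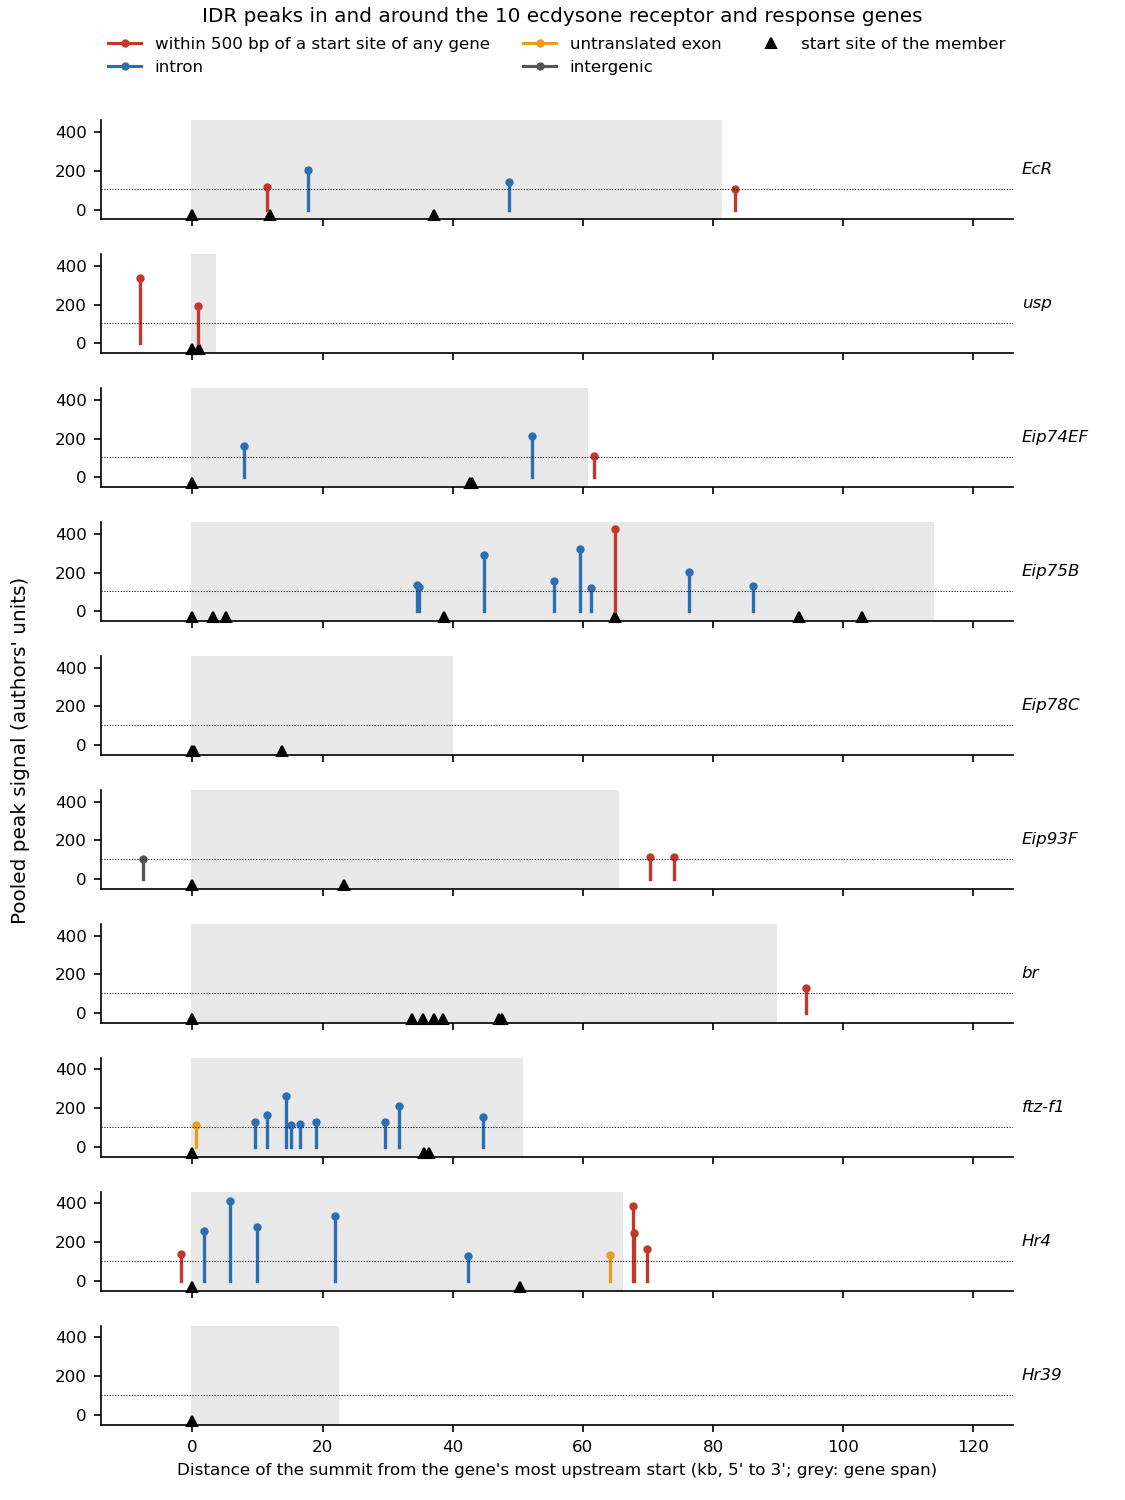
The height of each line is the pooled signal of an IDR peak in the authors' units, plotted by the distance of its summit from the most upstream start of the gene in kb, with the gene in grey, its starts as triangles and the lowest IDR signal (105.9) dotted. The 9 peaks of *Eip75B* and the 10 of *ftz-f1* all lie within the genes, and *Eip78C* and *Hr39* hold no peak.

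By position, the members' peaks were mostly intronic. Of the 42 summits, 26 (61.9%) lay in introns away from starts, 13 (31.0%) within 500 bp of the start of some protein-coding gene, 2 in untranslated exons, 1 between genes and 0 in coding exons. Over the whole IDR set 50.2% lay within 500 bp of a start and 34.7% in introns. Of the 31 summits inside members, 83.9% were intronic and 9.68% were at starts. For all 1082 IDR summits in genes of 20 kb or more the same shares were 79.0% and 18.9%. The intronic shares were thus close, while the share at starts was lower in the members, where it rests on 3 summits. Most of the 31 summits come from *Eip75B*, *ftz-f1* and *Hr4*, so the shares do not describe each member. The median distance from a summit in a member to the nearest start of that member was 7888 bp, with a range of 14 to 21983 bp, and 26 of the 31 lay over 2 kb away. Outside the members, 10 of 11 peaks lay within 500 bp of the start of a neighbouring gene. No share for peaks beside other long genes is given here to set against this.

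At the promoters, IDR summits within 500 bp of a start were found in 3 of 10 members, against 18.7% of all protein-coding genes and 24.5% of genes of 20 kb or more. They were *EcR*, *usp* and *Eip75B*. Among the 9 long members, the count was 2. After starts within 100 bp were merged, the members had 33 start clusters, of which 3 held an IDR summit, against 16.6% of 18922 clusters over all genes. Requiring an overlapping region among the 4060 highest of each other replicate left 2 members when replicate 2 or replicate 3 was set aside, and only *Eip75B* when replicate 1 was. At a limit of 200 bp in place of 500 bp the count of members was also 1. The larger pooled list, which holds 26959 candidate regions down to a q value of 0.96, had a region's summit at 14 of the 33 clusters and none at 19, against a region at 44.4% of the clusters of all genes.

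**Figure D2:**
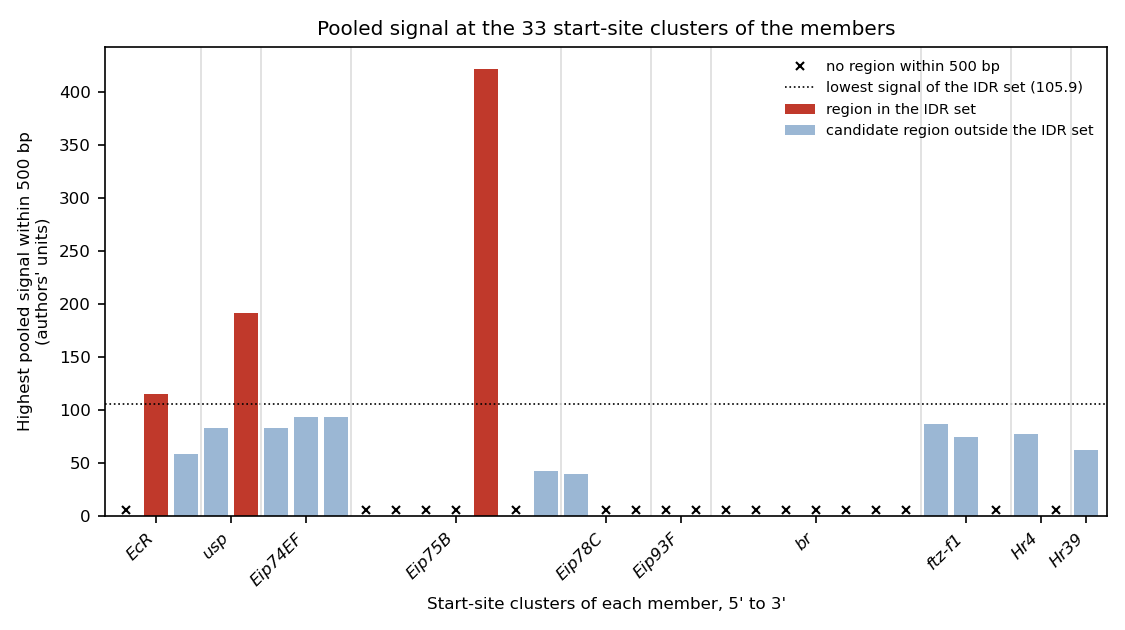
Bars give the highest pooled signal, in the authors' units, of a region with its summit within 500 bp of each of the 33 start clusters, with red for the IDR set, blue for weaker candidates and crosses where there was no region. The bar at 421.3 is the *Eip75B*-RC start, and all 7 clusters of *br* carry a cross.

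Receptor genes. *EcR* (FBgn0000546), the hormone-binding subunit, spans chr2R:6087873-6169087 on the minus strand with 3 start clusters. Its promoter peak, at 6157370 to 6157819, had a summit 466 bp upstream of the start shared by *EcR*-RD and *EcR*-RE and a pooled signal of 115.1, only 1.09 times the IDR minimum. In replicates 1, 2 and 3 the overlapping region ranked 1960, 4648 and 3080 by signal in that replicate's own list, so it fell outside the 4060 highest in replicate 2. In replicate 1 the summit of that region was more than 500 bp from the start. The strongest *EcR* peak was intronic, at 6151033 to 6151482, 5871 bp downstream of the same start, with a pooled signal of 201.1. It ranked 1907, 1050 and 1292 in the replicates, with signals of 70.9, 102.1 and 44.2 on their separate scales, inside the highest 4060 in each. A further intronic peak at 6120249 to 6120698 (pooled signal 139.2) ranked 2935, 3130 and 2217. The start of *EcR*-RA had no region in any list, and that of *EcR*-RB, *EcR*-RC and *EcR*-RG had only a weak candidate with a pooled signal of 58.3 and a q value of 0.415.

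*usp* (FBgn0003964), the fly counterpart of the vertebrate RXR receptors, is the short member, 3.51 kb at chrX:2038798-2042311 on the minus strand. Its peak at 2041289 to 2041738 had a summit 202 bp upstream of the *usp*-RA start and a pooled signal of 191.4, 1.81 times the minimum. The replicates ranked it 1069, 1907 and 5541, with signals of 95.5, 71.6 and 17.4. It was thus well placed in replicates 1 and 2 and outside the highest 4060 in replicate 3. That summit falls in an untranslated exon of *usp* and also inside *Actn*, which overlaps it. The *usp*-RB start had a candidate of signal 83.1 (q value 0.0818), which in replicate 3 ranked 3927, ahead of the *usp*-RA region there. A stronger peak of 338.9 lay 7977 bp upstream of *usp* at 2050178 to 2050384, but 168 bp from the start of *moody*, a receptor of the blood-brain barrier, and ranked 664, 495 and 407.

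Early genes. *Eip75B* (FBgn0000568) encodes a heme-binding nuclear receptor and spans 114 kb at chr3L:17950953-18064696 on the minus strand, with 7 start clusters. Its peak at 17999582 to 18000031 was the strongest of all 42, with a summit 14 bp downstream of the *Eip75B*-RC start and a pooled signal of 421.3, 3.98 times the IDR minimum. The replicates ranked it 273, 427 and 428, with signals of 173.2, 164.1 and 77.6. All replicates placed it far above rank 4060, and the GAGAGA words printed above lie just upstream of this start. Among the other 6 clusters, 5 had no pooled region within 500 bp, and that of *Eip75B*-RD had a candidate of signal 42.5 at a q value of 0.813.

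The remaining 8 *Eip75B* peaks were intronic, none within 3 kb of a start of the gene. The strongest of these, at 18004992 to 18005441, lay 5396 bp upstream of the *Eip75B*-RC start, with a pooled signal of 318.3 and replicate ranks of 681, 713 and 619. Next came 18019591 to 18020040, with 289.1 and ranks of 701, 746 and 1092. Both were reproducible to within a narrow span of ranks. The other 6 had pooled signals from 120.8 to 201.7. Over the gene, 6 of 9 peaks were among the highest 4060 regions of all replicates. Peaks at 18029578 and 18029923 overlap each other and share the same region in replicates 1 and 3, so they are not separate measurements there. Counts as high as 9 were reached by 22 of 13945 genes (0.158%), and by 17 (1.68%) of those of 20 kb or more.

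*Eip74EF* (FBgn0000567), which encodes an ETS-domain factor, spans chr3L:17558672-17619325 on the minus strand. No IDR summit lay at its 3 start clusters. The pooled candidates there had signals of 83.2 at the *Eip74EF*-RA, -RC and -RE start and 93.8 at the neighbouring *Eip74EF*-RB and -RD starts, the latter with a q value of 0.0372. In replicate 3 alone that region was among the highest 4060, at rank 3036. Its intronic peaks were stronger and were among the highest 4060 regions of every replicate. The one at 17566850 to 17567299, whose sequence is given above, had a pooled signal of 212.2 and ranked 1146, 1193 and 1946. The one at 17611212 to 17611661 had 163.4 and ranked 2101, 3023 and 2000. Another peak, 1114 bp beyond the gene and 230 bp from the start of *CycT*, a cyclin of the elongation factor P-TEFb, ranked 1964, 19007 and 2341 and so stood low in replicate 2.

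*br* (FBgn0283451), the BTB zinc-finger gene of the early response, had the fewest candidate regions per length of the 10. It spans 89.7 kb at chrX:1575132-1664869 on the plus strand, yet no IDR summit lay in it and none of its 7 start clusters had a region within 500 bp in the pooled list or in any replicate. Even candidates were sparse, with 10.9 pooled regions per 100 kb of its window against 20.1 over the chromosomes and 50.8 around *Eip75B*. Its 1 peak, of signal 130.4, lay 4499 bp downstream of the gene and 71 bp from the start of CG3740, with ranks of 3546, 2853 and 2902. *Eip78C* (FBgn0004865), an early-late nuclear receptor gene at chr3L:21226609-21266503, had no IDR peak either but had many candidates, 38.4 per 100 kb. The best of them, in an intron at 21259054 to 21259503, had a pooled signal of 85.7, a q value of 0.0665 and replicate ranks of 4588, 12986 and 6909. In no replicate did a region of its window enter the highest 4060.

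Competence and late genes. *ftz-f1* (FBgn0001078) encodes the nuclear receptor that prepares prepupal tissues for the next hormone pulse and, as a maternal product, is a partner of Fushi tarazu in the early embryo. It spans 50.7 kb at chr3L:18750607-18801309 on the minus strand and had 10 peaks, all within the gene. At 19.7 IDR summits per 100 kb it was the densest of the long members, against 3.03 over the chromosomes and 2.13 over genes of 20 kb or more. The strongest, at 18786725 to 18787174, lay 14359 bp downstream of the *ftz-f1*-RB start with a pooled signal of 263.3. This peak, whose sequence is printed above, ranked 946, 892 and 1184, with signals of 101.0, 111.4 and 46.0, so the replicates differed little. The peak at 18769302, upstream of the *ftz-f1*-RC and -RD starts by 3783 bp, had 212.5 and ranked 1547, 1158 and 2414.

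The other 8 *ftz-f1* peaks were weaker, with pooled signals from 113.5 to 164.3. Only 5 of the 10 were among the highest 4060 regions of all replicates. At 18791424, for example, the ranks were 10803, 1480 and 4061, so that peak was in the highest 4060 of replicate 2 and missed them in replicate 3 by 1 rank. None of the 10 lay within 500 bp of a start. The nearest was 554 bp downstream of the *ftz-f1*-RB start, in an untranslated exon, with ranks of 2748, 6036 and 3710. From the first to the last summit the peaks covered 44.1 kb with a median gap of 2564 bp. Of the 10, 7 also lie within lncRNA:CR45939, which overlaps the gene, so they cannot be assigned to 1 of these genes.

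*Hr4* (FBgn0264562), a nuclear receptor gene that acts as a repressor in the ecdysone cascade, spans chrX:1941940-2007956 on the plus strand. It also had 10 peaks, with 6 inside the gene and 4 at the starts of neighbours. Its strongest, at 1947667 to 1947778, is only 112 bp wide, lay 5814 bp into the gene and had a pooled signal of 412.8, 3.9 times the IDR minimum. The replicates ranked this peak, whose sequence is printed above, 514, 347 and 251, with signals of 133.1, 180.0 and 99.9. It was the best-ranked member region of replicates 2 and 3. Further intronic peaks followed at 1943552 to 1944001 (pooled signal 258.3, ranks 1145, 756 and 1384) and at 1951691 to 1952140 (278.9, ranks 1486, 699 and 486). The peak at 1963698 to 1964147 had 337.1 and ranked 562, 638 and 649. These 4 stood within 21983 bp of the upstream start, and all of them were among the highest 4060 regions of each replicate.

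The other *Hr4* peaks were a weaker intronic one, at 1984098 (131.1), and one in an untranslated exon near the 3′ end, at 2005804 (136.6). Neither start cluster of *Hr4* had an IDR summit, though the start shared by 7 transcripts had a candidate of signal 76.9 and q value 0.128. Outside the gene, the peaks at 2009380 (385.5) and 2009582 (246.5) overlap each other, share 1 region in every replicate and lie at the start of *PIG-K*, a subunit of the enzyme that attaches GPI anchors. The peaks at 1939986 and 2011583 lay 96 bp from the start of CG3587 and 500 bp from that of *east*. Of the 10 peaks, 8 were among the highest 4060 of all replicates, namely 4 of the 6 inside the gene and all 4 outside it. Those at *PIG-K* count there as separate peaks though they share 1 region. For *Eip75B* and *ftz-f1*, whose peaks all lie in the gene, the counts were 6 of 9 and 5 of 10. A count of 10 or more in the gene or within 10 kb was reached by 16 of 13945 genes (0.115%), or by 13 (1.28%) of those of 20 kb or more. For *Hr4* that count includes the 4 peaks at starts of neighbours, and no such share is given for the 6 inside the gene.

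*Hr39* (FBgn0261239), a nuclear receptor gene related to *ftz-f1*, lies at chr2L:21237250-21259675 on the plus strand and had no IDR peak. Its best candidate was outside the gene at 21263748 to 21264197, with a pooled signal of 89.0, a q value of 0.054 and ranks of 5631, 2747 and 9660. At its 1 start cluster the candidate had a signal of 62.2 and a q value of 0.33. *Eip93F* (FBgn0264490), whose product directs steroid-triggered cell death and adult fate in later stages, spans chr3R:21949114-22014539. It had no IDR summit in the gene and no region at either start cluster in the pooled list, with 12.9 candidates per 100 kb. Its 3 peaks all lay outside the gene, with signals from 107.2 to 114.5, at the lower edge of the IDR set. Of these, 2 were at the starts of *Idh3b* and *Mitofilin*, genes of mitochondrial proteins, and 0 of 3 were among the highest 4060 of all replicates.

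**Figure D3:**
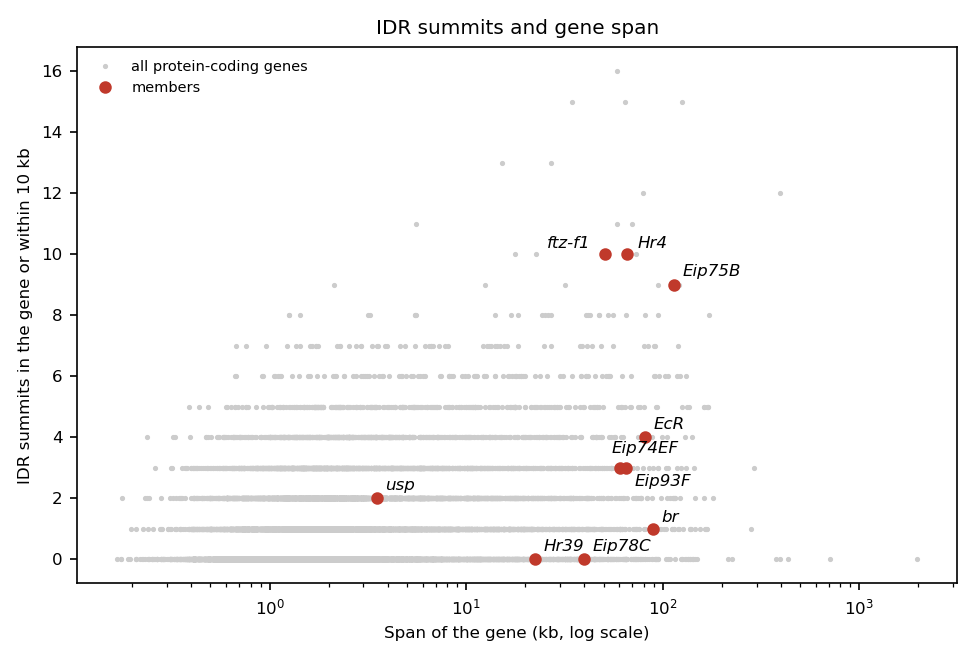
Each point is a protein-coding gene, placed by its span in kb on a log scale and by the number of IDR summits in the gene or within 10 kb, with the members in red and all genes in grey. *ftz-f1* and *Hr4* at 10 and *Eip75B* at 9 stand near the top, and *br*, *Hr39* and *Eip78C* have 1, 0 and 0.

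The median member had 3 peaks in its window, against 1 both for all genes and for genes of 20 kb or more. That class was not matched in span to the members, whose median span was 63.0 kb. Over the joined windows of the members, 793 kb, there were 5.29 IDR summits per 100 kb, against 3.03 over the chromosomes. Within the member genes the value was 5.22, against 2.13 within genes of 20 kb or more. These values are not shared by all members, since the windows of *ftz-f1*, *Hr4* and *Eip75B* hold 10, 10 and 9 of the 42 summits. By window, *br* had 0.911 per 100 kb, and *Eip78C* and *Hr39* had 0. The genes closest to *ftz-f1* and *Hr4* in number of summits were *SNF4Agamma*, *drn* and CG43736, each also with 10 in the gene or within 10 kb. Their spans were 73.5, 22.8 and 17.7 kb.

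In strength the members' peaks were ordinary to weak for the IDR set. Their median pooled signal was 146.3, with a range of 107.1 to 421.3, against a median of 166.8 for all 4060 peaks and a maximum of 2157.8. The whole set holds a smaller share of intronic peaks (34.7%, against 61.9%). No median for its intronic peaks alone is given here, so signal was not compared at like positions. Ranked within the set, 16 of 42 (38.1%) stood among the first 2030 and 2 (4.76%) among the first 406. Those 2 were the *Eip75B*-RC start at rank 328 and the narrow *Hr4* peak at rank 349. Peaks inside the members had a median of 155.9, and those outside 130.4.

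The same held in each replicate by itself. The median signal of the member peaks was 65.2, 60.0 and 30.9 in replicates 1, 2 and 3, against 70.6, 73.0 and 35.2 for all IDR peaks. The ratio was below 1 in every replicate, at 0.923, 0.821 and 0.876, or 0.873 ± 0.0511 (SD, n = 3). Signals are not scaled between replicates, so only the ratios can be set side by side. The pooled list was called on these same replicates, and the ratios are not independent of it.

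Reproducibility was checked by asking whether each member peak overlapped 1 of the 4060 highest regions in a replicate. That held in all 3 replicates for 25 of 42 peaks (59.5%), against 66.4% of the whole IDR set. It held in exactly 2 replicates for 12 peaks and in 1 for 5. In replicates 1, 2 and 3 it held for 35, 36 and 33 of the 42. The ratio of the worst to the best rank of a peak had a median of 1.91, with a range of 1.15 to 9.68, and 2.02 over all IDR peaks. Thus most member peaks kept about the place that other peaks did, and a few, such as that at *CycT*, moved far.

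**Figure D4:**
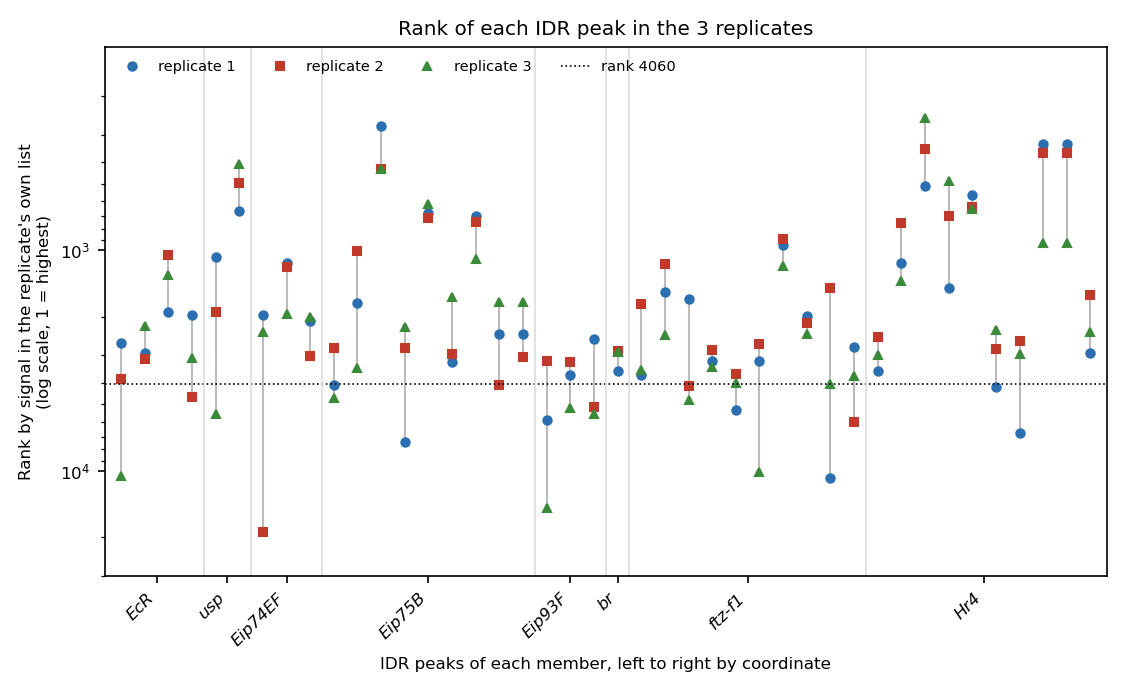
Each column is 1 of the 42 IDR peaks, grouped by gene, and the points give its rank by signal in the own list of replicates 1 to 3, on a log scale with the highest signal at the top and rank 4060 dotted. The points lie closest for the peaks at 18004992 in *Eip75B* and 1963698 in *Hr4*, whose worst rank is 1.15 times the best, and farthest for that at *CycT* beside *Eip74EF*, at 9.68 times.

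Sequence around the summits was searched for 10 words on both strands, in windows of 201 bp. The half-site AGGTCA was in 2 of 42 member windows (4.76%), against 3.55% of all IDR windows. They were that of *Eip74EF* printed above and that of *ftz-f1* at 18771511. The inverted repeat of this half-site, to which EcR and Usp bind, was in 0 of the 42 and in 0 of all 4060 windows. Only exact copies of this long word were counted. Imperfect copies were not searched, so the 0 cannot show that sites for EcR and Usp are absent. The longer word CAAGGTCA, known for Ftz-f1 and containing the half-site, was in 0 of 42 (0.246% of all). The Snail-family word CACCTG was in 4 (9.52%, against 4.68% of all), 3 of them around *Hr4* and 1 in *ftz-f1*. Of words read by HMG-box proteins, AACAAT was in 9 (21.4%, against 25.5%) and CTTTGA in 2 (4.76%, against 11.9%). Of the 9 windows with AACAAT, only 3 were among the 31 inside members (9.68%, against 26.7% of intronic IDR windows), and the other 6 lay outside the genes. The *usp* match printed above lies outside its 201-bp window. GAGAGA was in 2 (4.76%, against 9.66%), at the *Eip75B*-RC start and in *ftz-f1* at 18771511. Inside members, AGGTCA was in 2 of 31 windows (6.45%, against 3.98% of intronic IDR windows) and CACCTG in 3 (9.68%, against 4.69%). CTTTGA was in 2 there, and so was GAGAGA (6.45%, against 12.1% for each). For every word, the 31 windows inside members include 3 at starts and 2 in untranslated exons, unlike the intronic windows set beside them.

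The remaining words were TATCGATA, the word of the factors DREF and BEAF-32, in 2 windows (4.76%, against 3.45%), with CAGGTAG, read by Zelda, and CACGTG, the E-box of bHLH factors, in 0 (0.788% and 1.82% of all). Both windows with TATCGATA were at promoters of neighbouring genes, *Ars2* by *EcR* and CG3740 by *br*. None of the 10 words was found in 25 of 42 windows (59.5%), against 50.9% of all. With so few windows, differences of a few matches carry little weight, and a match does not show binding. The median GC content of the member windows was 36.8%, against 33.8% over the IDR set and 34.3% over its intronic peaks.

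Beyond the members, 70 other genes of the ecdysone system were counted in lists by role, and in 14 of them a start had an IDR summit within 500 bp, against 18.7% of all genes. None of 11 ecdysteroid synthesis genes did. Of these, 5 (45.5%) had a peak in the gene or within 10 kb, against 59.0% of all protein-coding genes. Of 6 genes for hormone import, turnover and release, *Oatp74D*, the ecdysone importer, had a peak of signal 182.6 with ranks of 2468, 2753 and 1015. *E23*, an ABC transporter gene of the same list, had one of 867.5, at rank 47 of the IDR set, with replicate ranks of 34, 54 and 57. That was above every member peak in the pooled list and in each replicate.

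Among 11 other nuclear receptor genes, 3 had a promoter peak, namely *Hr78* (222.3), *Hr96* (316.8) and *Hnf4* (365.3). The *Hr96* summit was nearer to the start of *EMC6*. Of 15 cofactor genes 5 did, namely *tai*, *alien*, *Utx*, *vri* and *gce*, with signals from 122.8 to 244.7. The peak of 244.7 at *tai*, which had 2 promoter summits, and that at *alien* were nearer to the starts of CG9586 and CG18661. When each peak counted only for the gene of its nearest start, 12 of the 14 pathway genes remained, *tai* among them. Of 27 further response genes 4 did, namely *Eip63E* (148.4), *Eip63F-1* (250.6), *Ldh* (386.9) and *hid* (276.8), the last a cell death gene. By the wider window, 47 of the 70 (67.1%) had a peak in the gene or within 10 kb, against 59.0% of all protein-coding genes. By list the share was 45.5% for synthesis and 50.0% for import, turnover and release. It was 72.7% for the other nuclear receptors, 80.0% for cofactors and 70.4% for the further response genes. These shares were not adjusted for gene span.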

How the data were processed

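ChIP-seq peak lists for 3 biological replicates of CG12104-GFP embryos were used in the dm6 build. The authors deposited for each region a signal value, scaled within its list alone, and the −log10 of a q value. Per the deposited text lists, regions were called for each replicate and for the pooled replicates against 1 control alignment, from which the IDR set was made. No source used here names the aligner or the caller. The IDR set equals the 4060 pooled regions of highest signal. The lists give no read counts, so depth is unknown and no interval can cover it. The lists in dm3 were not used.

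Genes came from Ensembl release 115 (BDGP6) and sequence from NCBI Release 6. A summit within 500 bp of a protein-coding start was counted as a promoter peak, and starts within 100 bp were merged. Each IDR peak took, in each replicate, the highest region overlapping by 1 bp or more. Members were described in full, other pathway genes were named where promoter-bound, and so were the 3 genes nearest in number of summits to the member with most (*Hr4* and *ftz-f1* tie). Members and lists were chosen with earlier results of these data known. All 70 listed pathway genes matched, 5 through older symbols. Counting functions were tested on simulated peaks. Tables were made with pandas 2.3.3 and numpy 2.4.6 in Python 3.11.15, and plots with matplotlib 3.10.9. The replicates are separate biosamples of 1 line.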

Additional observations from a re-analysis of the deposited data

How the results depend on the processing

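Over 8 results and their alternatives, 66 of 78 values stayed within the tolerance and 12 moved. The tolerance was 1.5 times for a count or rank and 1 SD (0.0511) for the signal ratio, so it passes changes such as 25 to 37 peaks found in all replicates with 10000 regions per replicate. At 200 bp from summit to start, 1 member, 1 start cluster and 7 other pathway genes were promoter-bound, and at 1000 bp 5 start clusters were. In the own list of replicate 3, 5 start clusters held one of its highest regions. With the 2030 peaks of highest signal alone, 16 peaks lay in the members' windows and 15 of them were found in all replicates. With 2000 regions per replicate in place of 4060, 13 were. The median signal ratio was 0.936 over the gene span alone and 0.95 within 20 kb. The cause was not tested.

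Leaving out each replicate in turn gave 1 to 2 promoter-bound members and 1 to 2 start clusters, 7 to 8 members with a peak, 29 peaks, 13 to 14 pathway genes and ratios from 0.848 to 0.899. These counts ask for a high region in both other replicates, with the IDR set as deposited. No paired analysis was possible because there is 1 group. Depth limits are unknown, so a missing region is not shown to be unbound.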
